A study of Mus musculus with 6 samples.

Results

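The Kruppel-like factors (Klf genes) encode transcription factors that end in zinc fingers and bind GC-rich or CACCC letters in promoters. The members were set by name as Klf2, Klf3, Klf4, Klf5, Klf6, Klf7, Klf10, Klf13 and Klf15 (9 genes), and every array probe that carried one of these symbols was taken. This gave 11 probes for 8 of the 9 genes, among 25697 probes for 18138 symbols on the array. Klf3 was not analysed here.

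Whole lungs came from 3 hSRY-OFF and 3 hSRY-ON animals, all male and at postnatal day 6. The strain was given as FVB by the labels and as FVB/N by the methods. Each sample was hybridised to 1 array of the Illumina MouseRef-8 BeadChip type. The Signalox-hSRY cassette sits as a single copy at the H11 locus, and in it the ubiquitous CAG promoter drives DsRed2 until a Cre recombinase removes that gene and puts human SRY behind the promoter. hSRY-ON pups had Ddx4-Cre mothers, whose eggs passed on the recombinase, and the pups on the arrays did not carry Ddx4-Cre themselves. hSRY-OFF is the study's name for the cassette without recombination, but its other controls were littermates without it, so that group rests on its label. The transgene came from 1 responder line at 1 site, was active in the whole body from the early embryo, and the hSRY-ON pups were growth-retarded. The paper also reported minimal suckling, stomachs without milk, impaired alveologenesis, a thymus that was sometimes absent and early postnatal death in hSRY-ON pups. The part of these traits in the Klf results was not tested. RNA was made from whole lung, so fewer cells of a type and less RNA per cell cannot be told apart. Nothing stated how the mice were shared among litters or the arrays among slides.

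In the lung, Klf2 and Klf4 are known from endothelial cells, where flowing blood induces them through the kinases Map3k3, Map2k5 and Mapk7 and the Mef2 factors, and where they raise Nos3 and Thbd and restrain inflammatory genes. Klf5 is needed for the maturation of the alveolar epithelium, Klf6 and Klf10 are induced by injury and TGF-beta, and Klf2 also keeps lymphocytes quiescent. Klf9 and Klf15 are targets of the glucocorticoid receptor, and Klf15 regulates the use of amino acids in liver and muscle.

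Promoter sequences are shown for Klf2, Klf4 and Klf6, because they let a reader set both genes that are coupled to flow (Klf2 and Klf4) beside one that moved the other way. Each covers the 250 bases before the RefSeq gene start, read 5′ to 3′ in the direction of the gene (build GRCm38.p6). Klf2 lies at chr8:72318812-72319061 on the plus strand, Klf4 at chr4:55532476-55532725 on the minus strand and Klf6 at chr13:5861239-5861488 on the plus strand. Capitals mark the GC box GGGCGG, the CACCC box CACCC and the MEF2 motif (CTA and, after 4 bases of any kind, TAG), each searched on both strands, so that CCGCCC and GGGTG are the same boxes on the other strand.
Klf2: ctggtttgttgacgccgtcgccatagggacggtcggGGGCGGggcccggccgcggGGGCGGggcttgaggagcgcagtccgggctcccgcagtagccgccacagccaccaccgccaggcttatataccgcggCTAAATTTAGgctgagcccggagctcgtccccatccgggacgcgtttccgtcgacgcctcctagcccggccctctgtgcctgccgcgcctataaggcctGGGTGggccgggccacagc
Klf4: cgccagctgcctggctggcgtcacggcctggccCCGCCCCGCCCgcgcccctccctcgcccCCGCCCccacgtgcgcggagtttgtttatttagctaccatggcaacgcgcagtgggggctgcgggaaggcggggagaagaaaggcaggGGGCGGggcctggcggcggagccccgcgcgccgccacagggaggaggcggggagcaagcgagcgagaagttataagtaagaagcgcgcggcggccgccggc
Klf6: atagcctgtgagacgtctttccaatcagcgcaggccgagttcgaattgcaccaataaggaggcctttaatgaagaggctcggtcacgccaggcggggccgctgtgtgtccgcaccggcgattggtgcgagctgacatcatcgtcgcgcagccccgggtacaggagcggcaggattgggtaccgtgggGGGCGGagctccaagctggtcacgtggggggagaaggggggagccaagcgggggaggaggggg

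RefSeq promoter entries matched 6 of the members, namely Klf2, Klf4, Klf6, Klf7, Klf13 and Klf15, and were searched from 250 bases before to 50 bases after the start. The GC box, the letters that Sp and Klf proteins themselves bind, was in 6 of 6, against 35.7% of 32851 promoters in the table. Klf4 held 4 of them, the first pair sharing 1 base, Klf13 held 3 and Klf2 held 2. The CACCC box was in 4 of 6 (57.5% of all promoters) and was absent from the windows of Klf4 and Klf6. The MEF2 motif was in the Klf2 window alone among the members, as CTAAATTTAG from base -118 to base -109, and in 3.69% of all promoters. Neither the core AACAAT of SRY and SOX proteins (10.7% of all promoters) nor the glucocorticoid receptor core AGAACA (19% of all promoters) was in any of the 6 windows. These matches describe the letters only, and the motifs were chosen with the expression results known.

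Of the 11 member probes, 9 probes of 7 genes passed the detection filter, which kept 13841 probes (53.9%). Among them 5 probes differed between the groups at an adjusted p under 0.05 (limma, Benjamini-Hochberg over all tested probes), where 26.9% of all tested probes did. Klf5 and Klf6 rose, and Klf2, Klf7 and 1 of 3 Klf4 probes fell. Calls in hSRY-ON were higher for 13.6% and lower for 13.3% of all tested probes, so both directions were about as common on the array. The median fitted change of the 9 probes was -0.59 on the log2 scale, against -0.03 over all tested probes. Klf4 gave 3 of these 9 probes, with changes of -0.70, -0.71 and -1.02, so this median weights that gene more than the others.

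The group values did not overlap for 6 of the 9 probes, where 46.6% of all tested probes showed no overlap. They were higher in hSRY-ON for 2 probes (22.4% of all tested probes) and lower for 4 (24.1%). With 3 arrays against 3, an exact two-sided permutation test of a single probe cannot go below p = 0.1, so all calls rest on the limma fit that shares the spread across probes. Arrays of the series detected 13191 to 14134 probes each, with a median unprocessed intensity of 177.1 to 204.0. The correlation across tested probes was 0.991 to 0.993 within hSRY-OFF, 0.972 to 0.980 within hSRY-ON and 0.935 to 0.959 between groups. The SD was larger in hSRY-ON for 5 of the 9 member probes and for 10195 of the 13841 tested probes.

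**Figure D1:**
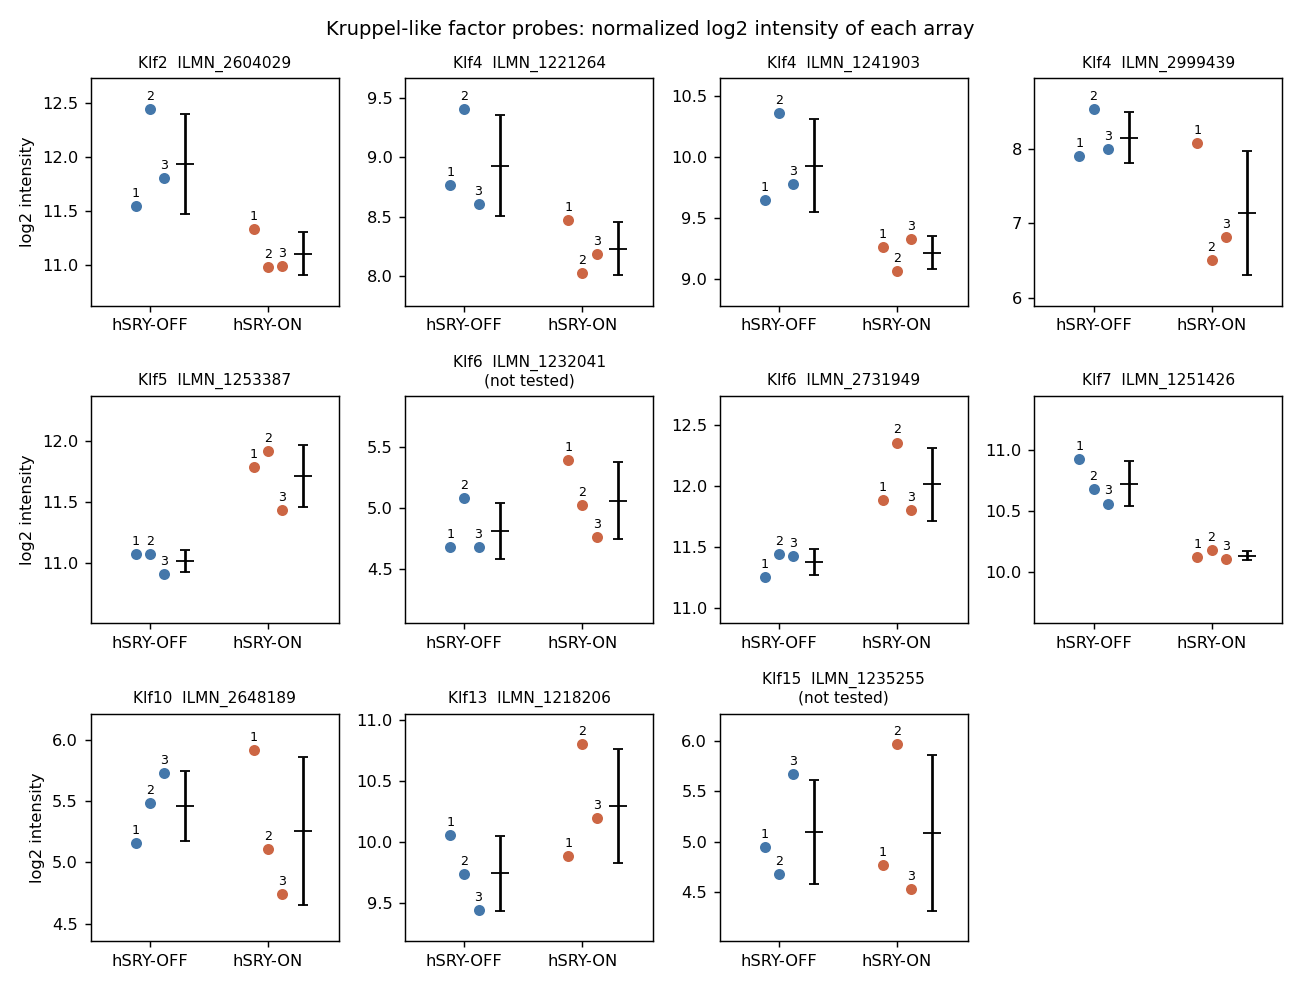
Normalized log2 intensity of each Klf probe on every array, with 1 numbered point per mouse (3 hSRY-OFF in blue, 3 hSRY-ON in orange), the group mean as a horizontal tick and the SD as error bars. Each panel has its own axis. The hSRY-ON points of Klf5 and Klf6 (the probe that was detected) lie above all hSRY-OFF points, those of Klf2, Klf7 and Klf4 (2 of 3 probes) lie below them, and those of Klf10, Klf13, Klf15, the undetected Klf6 probe and the third Klf4 probe overlap.

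Klf2, the flow-induced factor of the endothelium and of resting lymphocytes, was lower in hSRY-ON lungs. Its normalized log2 intensity was 11.55, 12.45 and 11.80 in hSRY-OFF replicates 1, 2 and 3, and 11.33, 10.98 and 10.99 in the hSRY-ON replicates. The lowest hSRY-OFF value was above the highest hSRY-ON value, and hSRY-OFF replicate 2 stood highest. The unprocessed intensity showed the same order, at 3063 to 5195 in hSRY-OFF and 2162 to 2487 in hSRY-ON. The means were 11.93 ± 0.46 and 11.10 ± 0.20 (SD, n = 3 each). The change was -0.83 on the log2 scale (SE 0.24, 95% interval -1.40 to -0.26), or 1.78-fold lower (limma, adjusted p = 0.0423). This call was close to the threshold. The adjusted p from limma was 0.0929 without hSRY-OFF replicate 2, with a change of -0.58, and 0.0859 without hSRY-OFF replicate 3. For hSRY-ON, leaving out replicate 2 gave 0.115 and leaving out replicate 3 gave 0.0902 (limma).

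Klf4, a second flow-induced factor of endothelium that is also expressed in epithelium and monocytes, was measured by 3 probes, which all had a negative change but did not all pass. Probe ILMN_1241903 gave 9.65, 10.36 and 9.78 on the log2 scale in hSRY-OFF and 9.26, 9.07 and 9.33 in hSRY-ON. These groups did not overlap, and hSRY-OFF replicate 2 was again the highest. The change was -0.71 (SE 0.20, 95% interval -1.19 to -0.23), or 1.64-fold lower (limma, adjusted p = 0.0399). The call was lost in limma without any 1 of the 6 arrays, with adjusted p-values of 0.0545, 0.0893 and 0.0740 without hSRY-OFF replicates 1, 2 and 3, and of 0.0558, 0.111 and 0.0572 without hSRY-ON replicates 1, 2 and 3. Without hSRY-OFF replicate 2 the change was -0.50.

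The second Klf4 probe, ILMN_1221264, gave 8.77, 9.41 and 8.60 in hSRY-OFF and 8.47, 8.03 and 8.19 in hSRY-ON. Its groups did not overlap either, and its change of -0.70 (SE 0.23) did not pass (limma, adjusted p = 0.0628). It passed in 5 of 17 alternative settings. In limma the adjusted p was 0.0477 without hSRY-ON replicate 1, 0.0476 without background correction and 0.0478 with an offset of 50. It was 0.0442 with 1 scaling factor per array and no background correction, and 0.0391 with a variance trend and robust estimation. The third, ILMN_2999439, gave 7.91, 8.54 and 8.002 in hSRY-OFF and 8.08, 6.51 and 6.82 in hSRY-ON. Here hSRY-ON replicate 1 lay within the hSRY-OFF range while the other hSRY-ON arrays lay below it. The change was -1.02 (SE 0.40, limma, adjusted p = 0.103), and it was -1.49 without hSRY-ON replicate 1 (limma, adjusted p = 0.00634).

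Klf5, a factor of dividing and maturing epithelium, was higher in hSRY-ON lungs. Its log2 intensity was 11.07, 11.07 and 10.91 in hSRY-OFF and 11.79, 11.92 and 11.43 in hSRY-ON. All hSRY-ON arrays were above all hSRY-OFF arrays, which lay within a narrow range. The means were 11.02 ± 0.09 and 11.71 ± 0.25 (SD, n = 3 each). The change was 0.70 on the log2 scale (SE 0.16, 95% interval 0.33 to 1.06), 1.62-fold higher in hSRY-ON (limma, adjusted p = 0.0182). With limma the adjusted p was 0.0624, 0.0616 and 0.0663 without hSRY-OFF replicates 1, 2 and 3 and 0.0503 without hSRY-ON replicate 2. The change in these fits was 0.72, 0.72, 0.65 and 0.59.

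Klf6, which is induced early in injured tissue, was also higher. Its detected probe gave 11.25, 11.45 and 11.43 in hSRY-OFF and 11.88, 12.35 and 11.80 in hSRY-ON. No values overlapped, and hSRY-ON replicate 2 was the highest. The change was 0.64 (SE 0.17, 95% interval 0.23 to 1.04), 1.55-fold higher in hSRY-ON (limma, adjusted p = 0.0339). In limma fits with 1 array less, the adjusted p was 0.121, 0.0912 and 0.0830 without hSRY-OFF replicates 1, 2 and 3 and 0.0543 without hSRY-ON replicate 2. The change in these fits was 0.58, 0.67, 0.66 and 0.47. The other Klf6 probe, ILMN_1232041, was detected on 0 of the 6 arrays, with a mean log2 intensity of 4.81 in hSRY-OFF and 5.06 in hSRY-ON, and was not tested.

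Klf7, a factor known from neurons and from the block of fat cell formation, was lower in hSRY-ON. Its log2 intensity was 10.93, 10.68 and 10.56 in hSRY-OFF and 10.12, 10.18 and 10.11 in hSRY-ON. The hSRY-ON arrays were nearly equal and all lay below hSRY-OFF. The means were 10.73 ± 0.18 and 10.14 ± 0.04 (SD, n = 3 each), a change of -0.59 (SE 0.13, 95% interval -0.90 to -0.28). This was 1.503-fold lower (limma, adjusted p = 0.0183). The call was lost without hSRY-OFF replicate 1 (limma, adjusted p = 0.0741) and without hSRY-OFF replicate 2 (0.0641). The change in these fits was -0.49 and -0.61.

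The remaining members gave no call. Klf13, a regulator of lymphocyte cytokine genes and of the heart, was 10.06, 9.74 and 9.44 in hSRY-OFF and 9.88, 10.81 and 10.20 in hSRY-ON. The groups overlapped through hSRY-ON replicate 1, and the change of 0.55 had a 95% interval of -0.07 to 1.17 (limma, adjusted p = 0.161). Leaving out hSRY-ON replicate 2, the highest array, gave a change of 0.29. Klf10, an early TGF-beta response gene, was dim, being detected on 2 hSRY-OFF arrays and 1 hSRY-ON array. It gave 5.16, 5.49 and 5.73 in hSRY-OFF and 5.92, 5.11 and 4.74 in hSRY-ON, and its 95% interval ran from -0.93 to 0.52 (limma, adjusted p = 0.653). Klf15 was detected on 1 array of each group, hSRY-OFF replicate 3 and hSRY-ON replicate 2, and was not tested. Its log2 intensity was 4.94, 4.68 and 5.67 in hSRY-OFF and 4.77, 5.97 and 4.53 in hSRY-ON, so neither group stood apart.

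**Figure D2:**
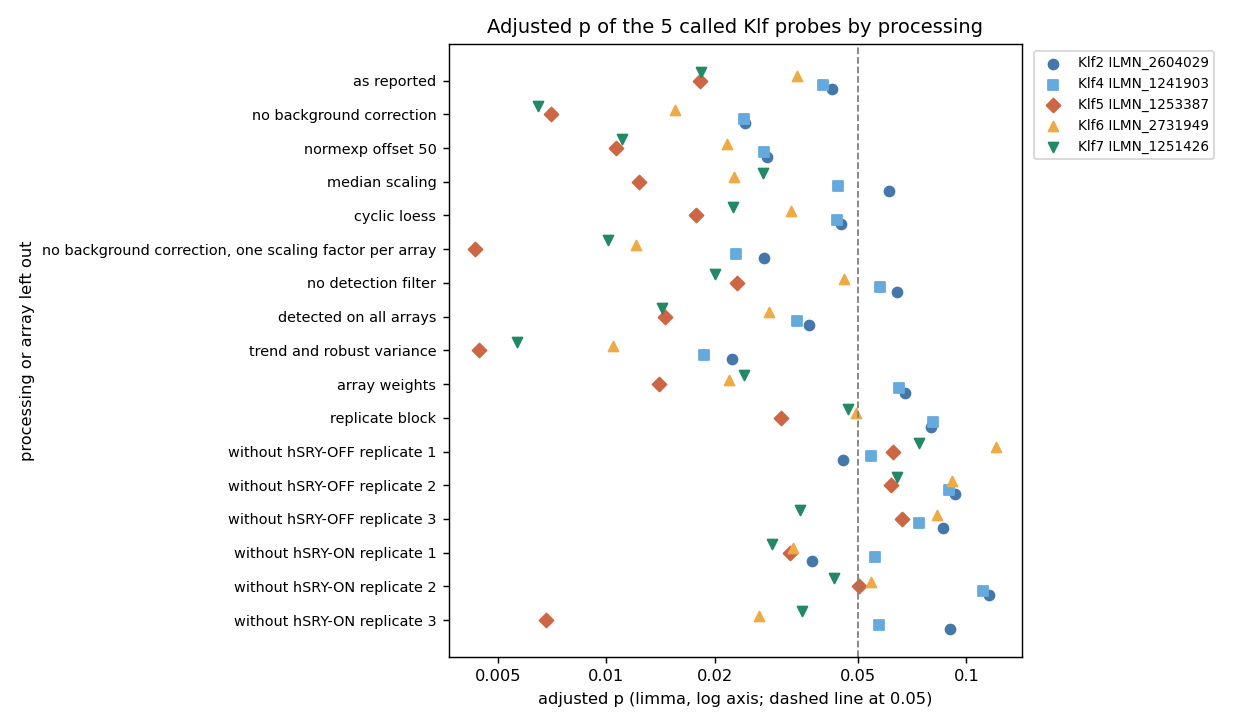
Adjusted p (limma, log axis) of the 5 called Klf probes, with a row for the reported processing and for each alternative or array left out, and a dashed line at the threshold of 0.05. Points of Klf7, Klf5 and Klf6 lie mostly left of the line, while those of Klf2 and Klf4 cross it in many rows, and without hSRY-OFF replicate 2 all 5 lie to its right.

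The patterns closest to the largest called rise and fall were sought among 13840 other probes, by the root mean square difference of log2 values over the 6 arrays after centring each probe. Klf5 was nearest to a probe of Lamp2, a lysosomal membrane protein (0.0358), and then to Rnu6 (0.0418) and Mapk1ip1 (0.0565). The other Lamp2 probes did not share this, with changes of -0.42, 1.24 and -0.13. Klf2 was nearest to Skiv2l2 (0.131), D930036B08Rik (0.143) and its relative Klf4, probe ILMN_1241903 (0.144). Skiv2l2 was detected on no hSRY-ON array, so its fall is given as a bound, at least 1.13-fold (limma, adjusted p = 0.0147).

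The rest of the Klf and Sp family was read from a list of 16 genes, of which 15 had probes and 7 were tested. Klf14 was not analysed here. Among 9 tested probes 1 rose and 1 fell. Klf9, the glucocorticoid target, was 10.11, 9.997 and 9.95 in hSRY-OFF and 11.47, 12.19 and 10.91 in hSRY-ON. All hSRY-ON arrays were higher, with a wide spread among them. The change was 1.51 (SE 0.30), 2.84-fold higher in hSRY-ON (limma, adjusted p = 0.0123).

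Sp5, a Wnt target, was 8.13, 7.68 and 8.05 in hSRY-OFF and 6.98, 6.47 and 7.497 in hSRY-ON. The groups did not overlap, and the change was -0.97 (SE 0.27, limma, adjusted p = 0.0354). The limma call was lost without hSRY-OFF replicate 1 (0.118), 2 (0.0646) or 3 (0.103) and without hSRY-ON replicate 1 (0.0564) or 2 (0.0737). The change of Sp5 was -0.53 without background correction, with either normalization. The fitted changes of Klf1, Klf16, Sp1, Sp4 and the 3 Sp6 probes lay between -0.33 and 0.47 and did not pass. Klf8, Klf11, Klf17, Sp3 and Sp7 were detected on no array.

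**Figure D3:**
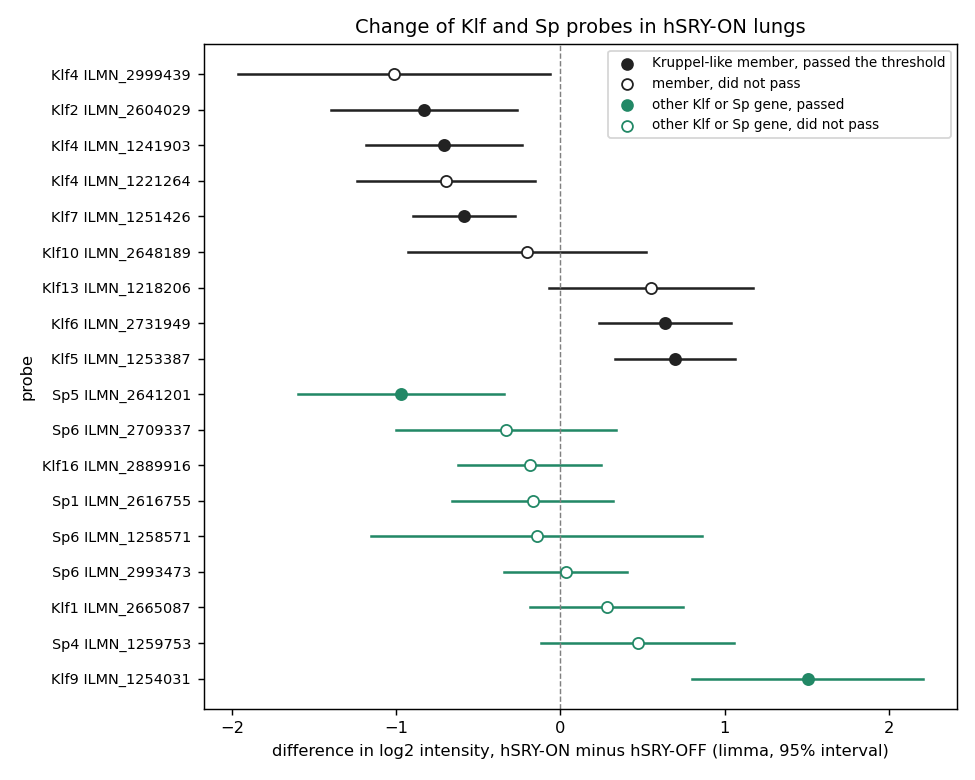
Log2 change with its 95% interval for all tested probes of the Klf and Sp family, hSRY-ON minus hSRY-OFF, with members in black and other Klf and Sp genes in green, filled where the adjusted p was under 0.05. Klf9 has the largest rise, at 1.51, and the intervals of Klf2, Klf4, Klf7 and Sp5 lie below 0.

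Genes that act before the Klf factors were read from a list of 12 regulators, of which 9 were tested, 1 rose and 1 fell. Mef2c, a factor that binds the MEF2 motif, went from 9.67 ± 0.15 to 8.60 ± 0.31 (SD, n = 3 each), a change of -1.07 (limma, adjusted p = 0.00729). Its other probes had changes of -0.89 and -0.95, and the Mef2c call held in all 17 alternative settings. Mapk7, the kinase that activates Mef2 factors, was dim, passing detection on 1 array of hSRY-OFF and 3 of hSRY-ON, with a change of 0.69 (limma, adjusted p = 0.0390). The Mapk7 call held in 5 of 16 alternatives, and its change was 0.20 without background correction and 0.26 when 1 scaling factor per array was also used. Each hSRY-OFF array and hSRY-ON replicate 2 was needed for it, and leaving out hSRY-ON replicate 1 gave 2 genes of the list called higher. Of the genes not called, Map3k3 had a change of 0.18, Map2k5 of 0.30 and Foxo1, which induces Klf2 in lymphocytes, of -0.18. Nr3c1, which encodes the glucocorticoid receptor, was detected on no array.

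The list of cofactors and degradation enzymes had 13 genes, of which 9 were tested. Only Wwp1 among them passed, an enzyme that marks Klf2 and Klf5 protein for degradation. It was 8.70 ± 0.06 in hSRY-OFF and 9.40 ± 0.15 in hSRY-ON (SD, n = 3 each), with a change of 0.70 (limma, adjusted p = 0.00853) and a call in all 17 alternatives. Without hSRY-ON replicate 1 or 2, 1 gene of this list was also called lower.

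Genes known to be induced by Klf2 or Klf4 in endothelium numbered 8, and the 6 tested all had a negative change, with a median of -0.85. Of these, 3 fell. Cldn5, a tight junction protein, changed by -0.67 (limma, adjusted p = 0.00947), and Palmd, of the endothelial cell cortex and junctions, by -1.04 (limma, adjusted p = 0.0132). Nos3 (endothelial nitric oxide synthase) and Thbd (thrombomodulin) are added here after their values were seen. All 3 Nos3 probes fell, the brightest by 1.13 on the log2 scale (limma, adjusted p = 0.0165), and Thbd had a change of -1.85 without passing (limma, adjusted p = 0.0521). The number of called genes was 1 without hSRY-OFF replicate 1 or 2 and 5 without hSRY-ON replicate 1. In that last fit Thbd had a change of -2.61 (limma, adjusted p = 0.000994).

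Genes known to be repressed by Klf2 or Klf4 in endothelium did not move in 1 direction. Of 7 genes 4 were tested, and the median change was -0.41. Edn1, the vasoconstrictor endothelin, rose by 1.80 (limma, adjusted p = 0.00753), 3.49-fold. Vcam1, a receptor for leukocytes, fell by 0.98 on the log2 scale (limma, adjusted p = 0.00643). Both calls held in all 17 alternatives, those that left out 1 array included.

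Endothelial markers are given beside these genes. Of 12 markers 11 were tested, 3 fell and 1 rose, and the median change was -0.30. Tie1 had a change of -0.82 (limma, adjusted p = 0.00419) and Eng of 0.54 (limma, adjusted p = 0.0258). The mean log2 level of the list was 12.37 to 12.43 on the hSRY-OFF arrays and 12.05 to 12.26 on the hSRY-ON arrays, and Kdr was detected on no array. The count of lower markers was 1 under median scaling and also without any hSRY-OFF array or hSRY-ON replicate 3, and the higher call was lost without any hSRY-OFF array or hSRY-ON replicate 2. The part of these markers in the Klf2 and Klf4 results was not tested.

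**Figure D4:**
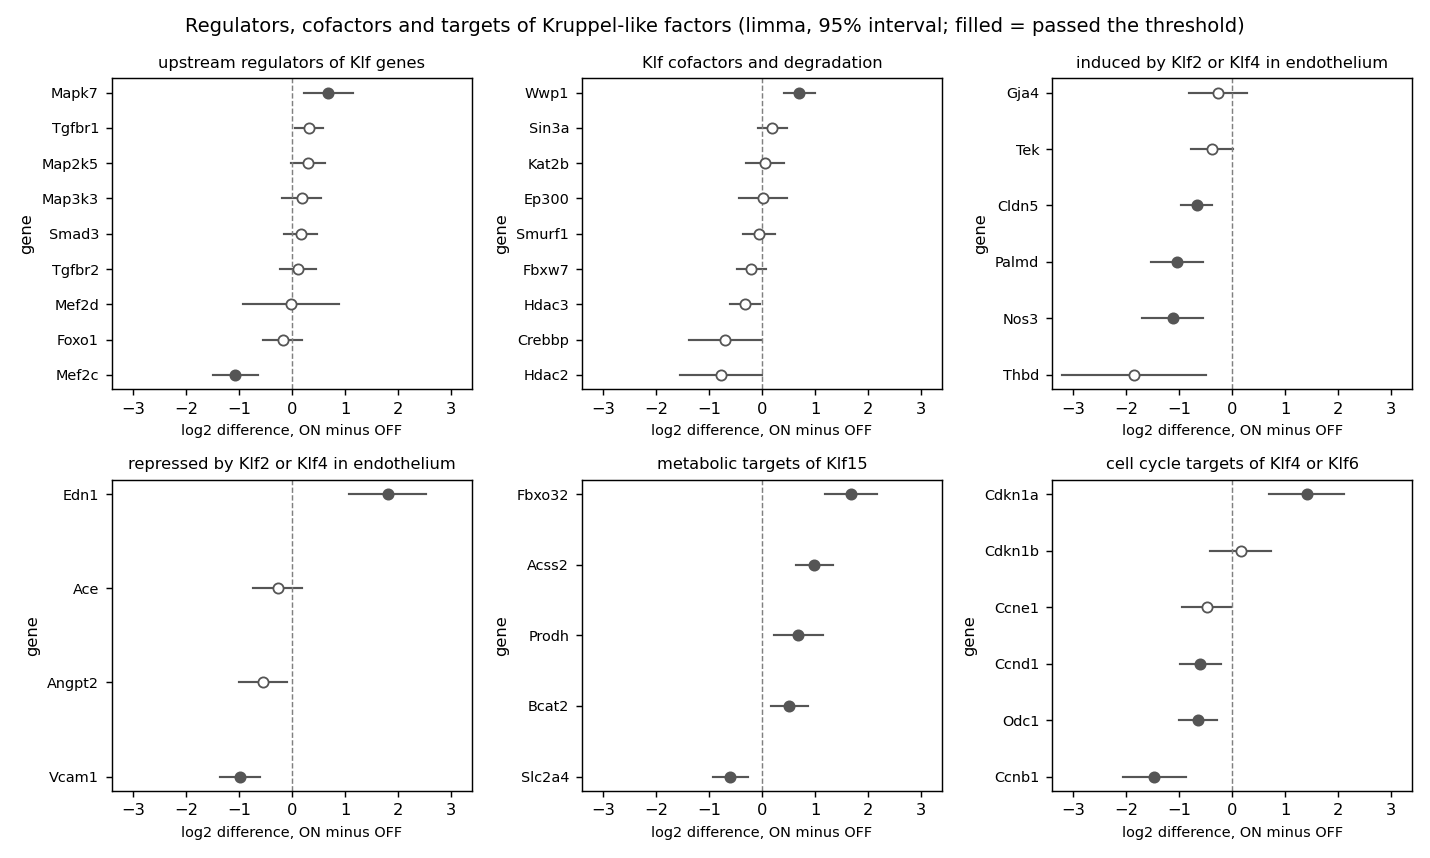
Log2 change with its 95% interval for the tested genes of 6 lists of Klf regulators, cofactors and targets, hSRY-ON minus hSRY-OFF, filled where the adjusted p was under 0.05. All 6 genes induced by Klf2 or Klf4 lie below 0, while Edn1 and Vcam1, both of the repressed list, lie on opposite sides.

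Klf15 was too dim to test, but several of its known metabolic targets were called. Of 7 genes 5 were tested, 4 rose and 1 fell, with a median of 0.68. Fbxo32, a ubiquitin ligase of muscle wasting, rose by 1.67 (limma, adjusted p = 0.00284), and Acss2, which makes acetyl-CoA from acetate, rose by 0.99 (limma, adjusted p = 0.00490). Both calls held in all 17 alternatives, while the list had 2 genes higher without hSRY-OFF replicate 1 or 2 or hSRY-ON replicate 2, and none lower without any hSRY-OFF array. Without a detection filter 2 were higher, and without background correction none was lower. Tat was detected on no array. Glucocorticoid-responsive genes, read beside Klf9 and Klf15, numbered 9, and 7 of 8 tested rose, with a median of 1.33. Fkbp5 rose by 2.95 (limma, adjusted p = 0.00201) and Mt2 by 1.42 (limma, adjusted p = 0.00246). Between 5 and 7 of them were called when 1 array was left out.

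Cell cycle genes that Klf4 or Klf6 are known to regulate numbered 6, all tested, of which 3 fell and 1 rose, with a median of -0.54. Ccnb1, a mitotic cyclin, fell by 1.47 on the log2 scale (limma, adjusted p = 0.00782). Cdkn1a, the inhibitor p21 that both factors induce, rose by 1.41 (limma, adjusted p = 0.0155). The number of lower genes was 1 without any hSRY-OFF array or hSRY-ON replicate 2, and the rise of Cdkn1a was lost without hSRY-OFF replicate 1 or 2.

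Early TGF-beta responsive genes, the group in which Klf10 was found, numbered 7, and of 5 tested 1 rose and 1 fell, with a median of -0.18. Tgfbi fell by 1.17 on the log2 scale (limma, adjusted p = 0.00618) and Ctgf rose by 0.90 (limma, adjusted p = 0.00905). Without hSRY-ON replicate 3, and in each other background correction and normalization tried, 2 genes were higher. Immediate early genes, which are induced with Klf2, Klf4, Klf6 and Klf10 by stress and handling, numbered 13. Of 9 tested, 1 fell and 0 rose, although 6 had a positive change and the median was 0.52. Egr2 fell by 0.41 (limma, adjusted p = 0.0411), a call lost when any hSRY-OFF array, or hSRY-ON replicate 2 or 3, was left out. The count turned to 1 higher and 0 lower without background correction, with an offset of 50, with median scaling, with 1 scaling factor per array and with a variance trend. Without hSRY-ON replicate 3, 3 genes of this list were called higher. Ier2, Btg2 and Nr4a1 were detected on no array.

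Marker lists of the other cells that the lung sample could hold differed between the groups, and their part in the Klf results was not tested. Alveolar type II markers, the cells known for Klf5, had 4 of 10 higher and 0 lower by limma, while 4 of 10 had a negative change that did not pass. Those with the smallest p among the calls were Sftpb (0.67, limma, adjusted p = 0.00798) and Abca3 (0.61, limma, adjusted p = 0.00880). Their mean level was 11.83 to 11.87 in hSRY-OFF and 11.88 to 12.21 in hSRY-ON, and 2 were called without any hSRY-OFF array or hSRY-ON replicate 2. A second Abca3 probe had a change of -0.07. Among the markers with a negative change were Lamp3 (-0.31, limma, adjusted p = 0.106) and Sftpc (-0.25, limma, adjusted p = 0.150), added after their values were seen, and 2 markers were called lower with a variance trend and robust estimation. Alveolar type I markers had 1 of 6 tested lower, Clic5 (-0.70, limma, adjusted p = 0.0188), with Hopx and Rtkn2 undetected, and 3 of the 6 had a positive change. Under median scaling, and with 1 scaling factor per array and no background correction, 2 were higher and 1 lower. That call was lost without hSRY-OFF replicate 1 or 2 or hSRY-ON replicate 2, while leaving out hSRY-ON replicate 1 gave 2 lower calls. The levels of this list ran from 12.33 to 12.47 in hSRY-OFF and from 12.22 to 12.45 in hSRY-ON, so they overlapped.

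Airway markers had 3 of 5 tested higher in all 6 fits that left out 1 array. Tekt1 of cilia had a change of 1.72 (limma, adjusted p = 0.00147) and Cyp2f2 of club cells one of 1.18 (limma, adjusted p = 0.00295). The secretoglobins Scgb3a2 (0.48, limma, adjusted p = 0.0573) and Scgb1a1 (0.006, limma, adjusted p = 0.974) did not pass, and are added after their values were seen. Their mean level was 11.09 to 11.21 in hSRY-OFF and 12 to 12.13 in hSRY-ON, with Krt5 and Dnahc5 undetected. Smooth muscle markers had 4 of 5 tested lower, with Des at -0.73 (limma, adjusted p = 0.00634) and Myh11 at -1.12 (limma, adjusted p = 0.00711). Their level was 11.46 to 11.50 in hSRY-OFF and 10.47 to 10.86 in hSRY-ON, Cnn1 was undetected, and 2 were called without hSRY-OFF replicate 1 or 2.

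Macrophage markers had 6 of 9 tested higher, with Marco at 2.55 (limma, adjusted p = 0.00639) and Chi3l3 at 3.76 (limma, adjusted p = 0.00834). Their level was 9.24 to 9.43 in hSRY-OFF and 10.32 to 11.01 in hSRY-ON. Lymphocyte markers, the other cells known for Klf2 and Klf13, had 4 of 8 tested lower. Cd2 changed by -1.37 (limma, adjusted p = 0.00241) and Cd3e by -1.74 (limma, adjusted p = 0.0112). The level of this list was 7.46 to 7.62 in hSRY-OFF and 6.07 to 7.21 in hSRY-ON, Ms4a1 was undetected, and 2 were called without any hSRY-OFF array or hSRY-ON replicate 1.

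Cardiac muscle markers had 1 of 7 tested higher and 2 lower, with Nppa at 5.55 (limma, adjusted p = 0.00608) and Myl4 at -1.94 (limma, adjusted p = 0.00499). Their level was 8.19 to 8.81 in hSRY-OFF and 8.34 to 9.45 in hSRY-ON. The lower count was 3 without hSRY-ON replicate 1 and 1 without any other array. No adipocyte marker passed the filter, and Fabp4, Plin, Lep and Cidec were detected on no array.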

How the data were processed

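Per the labels, total lung RNA was amplified to biotinylated cRNA, and the study's methods name the Illumina MouseRef-8 v2.0 BeadChip. The authors deposited, for each probe and array, a linear intensity with its detection p-value, without background correction or normalization. The software that summarised the beads is not given in the sources used here. Groups and replicate numbers came from the sample labels. The study analysed its arrays with TCC, a count-based package, while the submitters' processing notes name limma. Because intensities are not counts, limma 3.58.1 (R 4.3.3) took its place.

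The normexp background model, fitted through the detection p-values with an offset of 16, was followed by quantile normalization and a log2 transform of the deposited intensities. A probe had to be detected (p under 0.05) on 3 or more of 6 arrays, which left 13841 for lmFit and eBayes with no covariates. Benjamini-Hochberg adjustment ran over all of these, with a threshold of 0.05. Quantile normalization removes overall shifts, and the offset understates changes of dim probes. The pipeline was run on simulated data with independent noise for each probe and fewer changed probes than were called here. That setting differs from these arrays, so the run does not bear on the calls. The p-values set the group difference against the spread within groups, which limma shares across probes. Nothing says that the mice came from separate litters, so the p-values speak for these 6 samples only.

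The members, lists, motifs and tests were chosen with earlier results of these data known. Named are all member probes, called Klf and Sp probes, the called genes with the smallest p of each list (at most 2 a list) and the 3 probes nearest to the called members with the largest rise and fall. Each list takes the probe with the highest mean per gene. No coordinates come from the array files, and those of promoters are from RefSeq. A marker list of red blood cells is not reported here.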

Additional observations from a re-analysis of the deposited data

How the results depend on the processing

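Over 149 pairs of a member probe and an alternative setting, 108 kept direction and side of the threshold, 32 lost the call and 7 gained it. The other 2 turned the sign of the dim Klf10, to 0.0111 without background correction and with 1 scaling factor per array, and to 0.0551 without hSRY-ON replicate 3 (its range with 1 array left out was -0.35 to 0.0551). Klf7 kept its call in 14 of 17 settings, Klf5 and Klf6 in 12, Klf2 in 8 and Klf4 probe ILMN_1241903 in 7. With no detection filter 3 member probes were called, 1 of them lower, and 1 other Klf or Sp probe, where 13.1% of all probes were. At an adjusted p under 0.01 limma called 1326 probes in all, 0 member probes (0 higher, 0 lower) and 0 other Klf or Sp probes, where 7 member probes (3 of them of Klf4) and 2 others had an unadjusted p under 0.05, as did 40.9% of all tested probes. Leaving out 1 array gave 1507 to 4385 calls in all (lowest without hSRY-OFF replicate 1, highest without hSRY-ON replicate 1), 0 to 6 member calls (0 to 2 higher, 0 to 4 lower) and 1 to 2 others. Without hSRY-OFF replicate 2, 0 member probes were called by limma (12.1% of all probes were), and 6 of 8 tested had an unadjusted p under 0.05 (31.8% of all). The limma count was 1 of 9 without hSRY-OFF replicate 1 (11.2% of all) and 1 of 8 without hSRY-OFF replicate 3 (15.5% of all). It was 6 of 8 without hSRY-ON replicate 1 (32.3% of all), 1 of 9 without hSRY-ON replicate 2 (17.7% of all) and 3 of 9 without hSRY-ON replicate 3 (27.7% of all). With all arrays it was 6 of 9 without background correction (29.6% of all) and with an offset of 50 (28.9% of all). It was also 6 of 9 with 1 scaling factor per array and no background correction (27.9% of all), and with a variance trend and robust estimation (29.8% of all). Median scaling took the call from Klf2 (limma, adjusted p = 0.0610), and array weights from Klf2 (0.0676) and Klf4 probe ILMN_1241903 (0.0651). With array weights Klf4 probe ILMN_2999439 gained a call, with a change of -1.19 (limma, adjusted p = 0.0434).

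With the replicate number as a block, 2657 probes were called in all and 3 member probes (Klf5, Klf6 and Klf7), 1 of them lower, against 19.2% of all probes. In the lists the block left 1 endothelial marker lower and 0 higher, 2 alveolar type II markers and 2 Klf15 targets higher, 1 cardiac marker lower, and 1 immediate early gene higher. Deviations of same-numbered arrays correlated at -0.107, 0.0958 and -0.0927, and those of differently numbered arrays at -0.0885 to 0.162. With 3 arrays per group, these values cannot tell whether litters or slides were shared. The list calls under each alternative were added after seeing the data. The number of arrays limits every value here, and the 2 untested member probes, with Klf10, were near the background.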
